A study of Mus musculus with 100 samples.

Results

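Branched-chain amino acid catabolism was followed through 10 of the 32153 genes measured in mouse fat, namely Bcat1, Bcat2, Bckdha, Bckdhb, Dbt, Bckdk, Ivd, Mccc1, Mccc2 and Pcca, each found by mapping the Ensembl transcripts of the deposited tables to gene symbols. RNA sequencing compared libraries whose titles mark them as knockout (KO) for GPS2, which belongs to the corepressor complex of NCoR and SMRT, with libraries marked as wild type (WT). In the labelled cross Adipoq-Cre, expressed from an adipocyte promoter, recombines floxed Gps2 alleles. The strain label Adipoq-Cre-Gps2flox/flox is shared by KO and WT samples and the genotype stands only in the titles, so which of these alleles the WT mice carried is not given. On chow, intra-abdominal fat came from mice aged 19 weeks (3 KO and 3 WT replicates, called CD). On high fat diet, the same depot came from mice aged 11 weeks (4 KO and 4 WT, called HFD), and the name of the table adds 4 weeks of diet. From mice aged 19 weeks, whose table names add 12 weeks of high fat diet, there was whole intra-abdominal fat (3 KO and 3 WT, called Epi) and its isolated adipocytes (2 KO and 3 WT, called Adipo). Inguinal fat of mice aged 8 weeks formed the beta-adrenergic series (4 KO and 4 WT, called BA), of which the labels give neither the agent nor its dose. Whether each replicate is its own animal is not stated, so a p-value speaks of the spread among these samples alone, and that spread may be technical.

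Leucine, isoleucine and valine first lose their amino group to a transaminase, BCAT1 in the cytosol or BCAT2 in mitochondria. Their keto acids then pass an irreversible step at the branched-chain keto acid dehydrogenase complex, built of the E1 subunits BCKDHA and BCKDHB, the E2 core DBT and a shared E3 subunit, and switched off when the kinase BCKDK phosphorylates E1. Leucine carbon continues through isovaleryl-CoA dehydrogenase (IVD) and methylcrotonyl-CoA carboxylase (MCCC1 and MCCC2), and valine and isoleucine carbon reaches propionyl-CoA carboxylase, of which PCCA is the alpha subunit. Differentiated adipocytes are known to oxidise these amino acids and to use their carbon for lipid synthesis.

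The promoters of Bcat1 and of 3 enzymes of the leucine arm are printed. Bcat1 was the 1 gene of the 10 that passed the test described below. Ivd, Mccc1 and Mccc2 were chosen after their values were seen and varied together over replicates (Pearson r of 0.69 to 0.84). This does not set them apart, as Ivd had an r of 0.90 with Bckdha and 0.84 with Bcat2. Each sequence is the 250 bases before the annotated start from RefSeq (GRCm38.p6), 5′ to 3′ on the gene's own strand. For Ivd that start lies 40 bases inside the transcript measured here. The last 40 bases of its window, with its last marked match, therefore belong to that transcript. Capitals mark matches on either strand to the E-box letters CACGTG, to the GC box letters GGGCGG, to the letters CCAAT of the box of that name, or to the nuclear receptor element AGGTCA, which may overlap each other.
Bcat1, chr6:145048813-145049062, minus strand: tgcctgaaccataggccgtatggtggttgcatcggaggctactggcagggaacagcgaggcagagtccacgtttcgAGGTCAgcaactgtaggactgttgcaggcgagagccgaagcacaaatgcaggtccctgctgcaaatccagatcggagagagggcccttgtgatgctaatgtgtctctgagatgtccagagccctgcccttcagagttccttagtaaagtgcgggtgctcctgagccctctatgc
Ivd, chr2:118861744-118861993, plus strand: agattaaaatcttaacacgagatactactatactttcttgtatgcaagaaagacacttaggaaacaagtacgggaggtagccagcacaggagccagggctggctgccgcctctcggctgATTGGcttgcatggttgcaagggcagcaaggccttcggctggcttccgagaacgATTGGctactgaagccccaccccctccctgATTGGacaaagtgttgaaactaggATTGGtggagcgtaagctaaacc
Mccc1, chr3:36000679-36000928, minus strand: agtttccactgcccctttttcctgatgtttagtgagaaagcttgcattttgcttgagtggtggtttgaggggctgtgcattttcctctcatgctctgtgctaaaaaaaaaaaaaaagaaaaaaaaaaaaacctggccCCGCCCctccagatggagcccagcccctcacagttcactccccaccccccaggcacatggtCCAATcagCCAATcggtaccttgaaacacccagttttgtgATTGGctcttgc
Mccc2, chr13:100015640-100015889, minus strand: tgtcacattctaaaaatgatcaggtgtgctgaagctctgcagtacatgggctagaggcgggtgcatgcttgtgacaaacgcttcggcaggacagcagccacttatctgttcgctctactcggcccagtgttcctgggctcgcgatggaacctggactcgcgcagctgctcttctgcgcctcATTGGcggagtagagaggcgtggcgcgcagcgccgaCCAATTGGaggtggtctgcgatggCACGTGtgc
The CCAAT box matched 4 times before the RefSeq start of Ivd, 3 times before Mccc1 and 3 times before Mccc2. In Mccc2 a forward and a reverse match overlap. Before Bcat1 the box matched 0 times. Of the other genes with a promoter, Bckdhb had 2 matches, Bckdk and Pcca 1 each, and Bcat2 and Bckdha 0. So 3 of 9 promoters held 3 or more. In the Bckdha window 220 of the 250 bases lie past the start of the transcript measured here. Bcat1, Bcat2, Bckdhb and Pcca have 2 annotated starts each, of which 1 was used. At least 3 matches were found in 2.79% of 32851 promoters of the same length, and at least 1 match in 33.8%. The cut of 3 was used for this box alone and equals the counts of Mccc1 and Mccc2, so these shares are not a test. The element AGGTCA occurred once before Bcat1 and in 14% of all promoters. GGGCGG, found once before Mccc1, is in 32.7% of all promoters, and CACGTG, found once before Mccc2, in 6.02%. These are matches of letters and not binding sites. RefSeq promoters were found for 9 of the 10 genes, all but Dbt.

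Recovered reads per replicate, summed over 1 transcript per gene, ranged from 29342792 to 63232066, and the lowest and highest values come from Epi WT and HFD WT. Full-length Gps2 had 390.4 ± 42.7 normalised reads in HFD KO and 388 ± 27.1 in HFD WT (SD, n = 4 each), and passed in no table. Its log2 difference (KO over WT) was 0.0052 in HFD and up to 0.15 elsewhere (BA), and in CD it was 0.043, or -0.071 after TMM scaling. The deleted exons are not given, so this transcript does not check the labels, and KO and WT stand for what the titles say throughout. Adipocyte markers (Adipoq, Plin1, Lep, Cfd, Fabp4, Cidec and Lipe) were abundant in every replicate, with a mean log2(value + 1) of 14.17 to 17.86. Several libraries stood apart. CD KO replicates 1 and 2 carried epididymis markers (mean log2(value + 1) of the 6 genes 9.93 and 9.66, against 1.14 in KO 3), and CD WT 2 carried them at a lower level (4.53, against 1.95 and 0.45 in WT 1 and 3). Epi KO 2 and 3 carried them too (8.99 and 7.05, against 0 in KO 1 and 0.15 to 1.01 in WT). A chi-square test of counts gave 2.69 per degree of freedom between CD KO 1 and 2, against at most 1.16 between libraries of 1 CD replicate. They were therefore kept as 2 samples. However, KO 3 gave 140 against KO 1 and 145 against KO 2, and pairs of CD WT replicates gave 55.8 to 295. CD KO 1 and 2 were thus far more alike than other replicates of the table. The CD group of 3 KO replicates may hold less independent spread than its SE and p assume. CD KO 1, KO 2 and WT 2 carried epithelial markers (10.12, 10.18 and 9.25), as did Epi KO 2 (10.43), and CD WT 2 had the lowest adipocyte value of its table. CD WT 1 carried B cell markers (1913 normalised reads summed, against 66.7 to 156 in KO and 55.7 and 195 in the other WT replicates). BA KO 3 and BA WT 2 carried skeletal muscle markers (8.39 and 8.54, against 1.56 to 4.41 in the others). CD WT 2 also had the most muscle markers of its table (5620 normalised reads summed, against 104 to 576). Its summed mesothelial markers were the highest there too (5219.5, against 236 to 2212). HFD WT 1 carried epithelial markers (6.53, against 2.77 to 4.13 in the other HFD replicates). HFD KO 1 carried B cell markers (425 normalised reads summed, against 42.2 to 132 in the other HFD replicates). In bulk samples fewer cells of a type and less RNA per cell cannot be told apart.

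As RPKM, computed here from the normalised reads by dividing by transcript length and by the total of the replicate so that genes can be compared, Bcat2 and Bckdha led the pathway and Bcat1 came last in each of the 10 groups of samples. In HFD, the RPKM of Bcat2 was 304 ± 14.5 in KO and 219 ± 54.9 in WT (SD, n = 4 each), and that of Bckdha 197 ± 6.83 in KO and 191 ± 16.2 in WT. Bcat1 had 0.37 ± 0.0985 in KO and 1.51 ± 0.255 in WT. The mitochondrial transaminase exceeded the cytosolic one per length by 612 to 1243 times in HFD KO and by 112 to 257 times in HFD WT. These ratios depend on the Bcat1 transcript used, of 7833 bases and 175 normalised reads in HFD WT. A listed transcript of 1642 bases had 72.5 there, which is more per length. The other 7 genes lay between them in HFD. Mccc1 averaged 111 in KO and 77.3 in WT, Ivd 103 and 93.1, and Bckdhb 87.5 and 60.2. Mccc2 averaged 60.5 in KO and 71.8 in WT, and Pcca 59.7 and 62.1. The kinase Bckdk (28.7 in KO and 34.2 in WT) and the E2 core Dbt (24.8 and 26.9) were the lowest of the mitochondrial genes.

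Neighbours in this order were not all apart. In HFD KO, Mccc2 was above Pcca in 2 of 4 replicates, and in HFD WT Bcat2 was above Bckdha in 3 of 4. In inguinal fat of the BA table the first place was held by Bckdha, with 358 ± 56.7 in KO and 388 ± 35.6 in WT (SD, n = 4 each), above Bcat2 in 3 of 4 KO and 4 of 4 WT replicates. In Adipo WT, Bckdha and Bcat2 averaged 144 and 139.9 and their order held in 2 of 3 replicates. Of the Bckdha transcript 61.7% overlaps exons of B3gnt8 on the other strand. A B3gnt8 isoform that spans that stretch was listed at 63.6 to 101 normalised reads in HFD, against 5229.9 to 5764 for Bckdha in KO and 4503 to 6101 in WT.

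**Figure D1:**
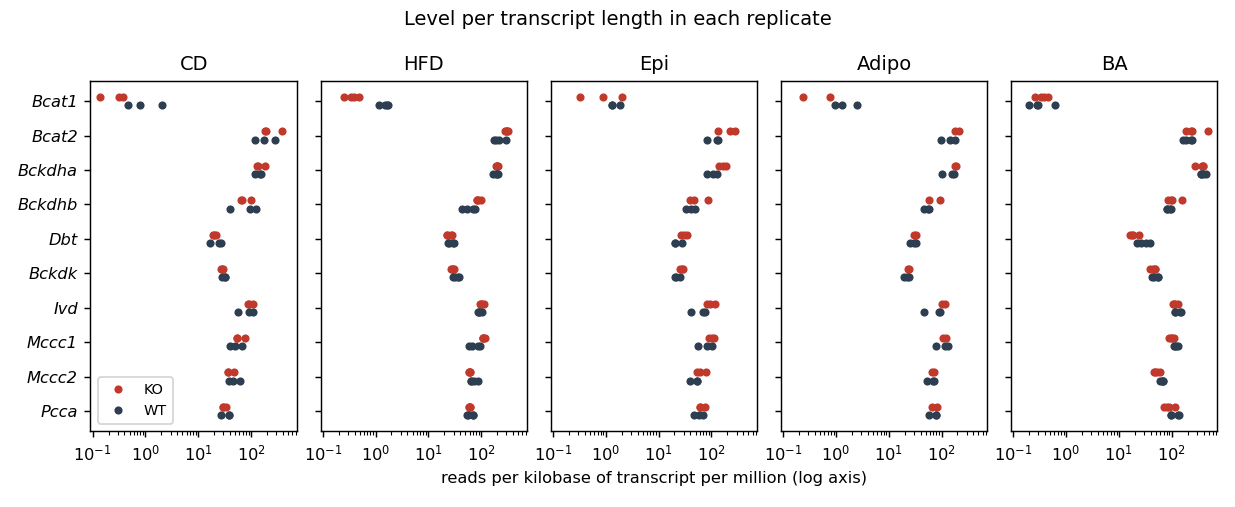
RPKM, reads scaled by transcript length and by the total of the replicate (x axis, log scale), of the 10 genes (y axis) in every replicate of the 5 tables, KO in red above WT in dark blue. Bcat1 is the lowest gene in each table, and Bcat2 and Bckdha are the highest.

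After the short high fat diet the cytosolic transaminase Bcat1 fell in KO, the 1 gene of the 10 that passed in any table. Bcat1 (chromosome 6, 144993835 to 145048812, minus strand, GRCm38, as for the positions that follow) had 27.6, 41.4, 58.0 and 45.1 normalised reads in KO, against 162, 178, 137 and 223 in WT. All 4 KO replicates lay below all 4 WT replicates, and the highest KO value was under the lowest WT value by more than the range of the KO group. The means were 43.0 ± 12.5 in KO and 175 ± 36.0 in WT (SD, n = 4 each). On the log2(value + 1) scale the difference was -2.02 ± 0.23 (SE), with a 95% interval of -2.54 to -1.51, which is 4.07-fold lower in KO, with an adjusted p of 0.00376 (limma, Benjamini-Hochberg over 13946 genes). It ranked 18 by size among the 343 genes that fell in HFD. Bcat1 passed under each of the 19 alternatives, with adjusted p from 4.68e-13 to 0.0177. The values rest on few reads, 125 to 232 recovered reads per KO replicate and 514 to 757 per WT replicate, in which HFD KO 2 and WT 4 cover 3 of 4 libraries. All 10 listed Bcat1 transcripts were lower in KO without overlap of the groups, with log2 differences of -2.02 to -1.77, and these isoforms share reads.

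Bcat1 was also low in KO in other tables, without passing the test. In CD it had 40.7, 34.8 and 16.8 normalised reads in KO, against 74.3, 179 and 49.0 in WT. These groups did not overlap, as in 16.9% of all genes in CD. The log2 difference was -1.56 ± 0.58 (SE), with an adjusted p of 0.516 (limma). Without KO 1, KO 2 and WT 2, the CD replicates with epididymis markers, the difference was -1.79 over 1 KO and 2 WT replicates, and leaving out single replicates gave -1.96 to -1.04. In isolated adipocytes Bcat1 had 70.5 and 240.4 normalised reads in KO, against 307, 402 and 768 in WT. These groups did not overlap either, as in 48% of all genes in Adipo. The log2 difference was -1.80 ± 0.61 (SE), with an adjusted p of 0.161 (limma). With the first KO replicate left out that difference was -0.92, and with the second left out it was -2.68.

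In whole fat after the long diet Bcat1 had 131, 676 and 339.7 normalised reads in KO, against 454, 501 and 664 in WT. The KO replicates spread over more than the WT range, and the highest of all 6 values is KO 2. The log2 difference was -0.77 ± 0.56 (SE) with an adjusted p of 0.696 (limma). KO 2 and KO 3 are the Epi replicates with epididymis markers, and against KO 1 alone, assumed to vary like the WT replicates, the difference was -2.01. Without KO 1 it was -0.15, and leaving out KO 2 alone gave -1.33. In inguinal fat Bcat1 had 30.0, 35.4, 38.7 and 49.5 normalised reads in KO, against 61.9, 30.1, 29.9 and 21.5 in WT, where the groups overlapped and the log2 difference was 0.18 ± 0.30 (SE), with an adjusted p of 0.924.

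**Figure D2:**
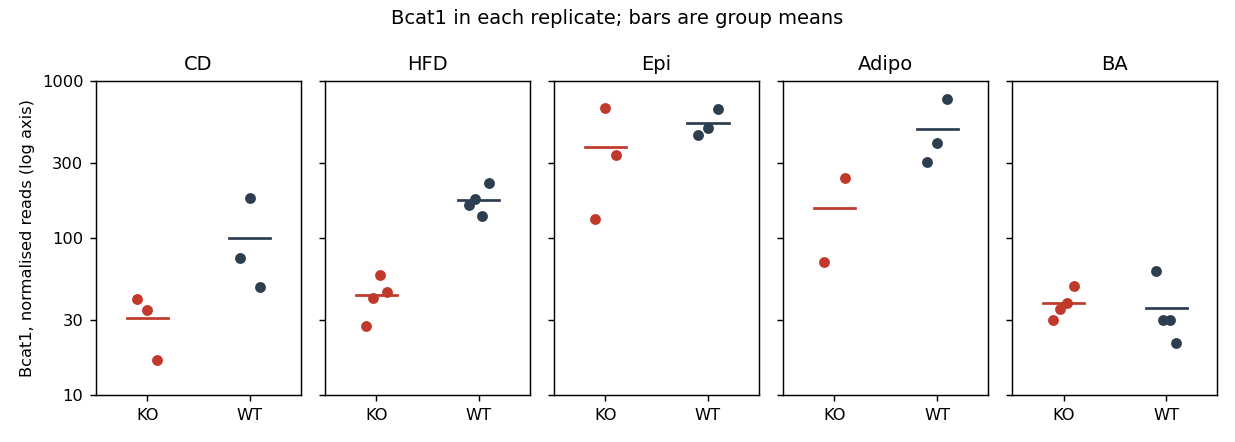
Bcat1 in normalised reads (y axis, log scale) in each KO (red, left) and WT (dark blue, right) replicate of the 5 tables, with bars at the group means. KO lies below WT without overlap in CD, HFD and Adipo, and the groups overlap in Epi and BA. Groups did not overlap, in either direction, for 16.9%, 14% and 48% of all genes in CD, HFD and Adipo. Levels should not be compared from table to table.

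The KO to WT difference of Bcat1 was compared between tables, each normalised separately, as a difference of log2 ratios. It was higher in BA than in HFD by 2.21 ± 0.40 (SE) on the log2 scale, with 0.18 in BA and -2.02 in HFD, with an adjusted p of 0.027 (limma interaction over 12079 genes, of which 0.381% passed). This call was lost under 9 of 23 alternatives, among them the replicate block (adjusted p = 0.124) and, at adjusted p of 0.052 to 0.0759, the omission of BA KO 3 or 4, BA WT 3 or 4, HFD KO 1, 2 or 4 or HFD WT 4, while the difference itself stayed between 2.01 and 2.50. Depot, age and treatment all differ between these tables. HFD mice had a high fat diet, and the diet of the BA mice is not given here. These factors cannot be told apart. Mccc1 differed in the other direction by -0.79 ± 0.21, with an adjusted p of 0.111. No other gene of the 10 passed in BA against HFD. None of the 10 passed in HFD against CD (0% of 13749 genes passed), Epi against CD (0% of 15059) or Adipo against Epi (1.67% of 14033). For Bcat1 these differences were -0.47 (95% interval -1.73 to 0.80), 0.78 (-1.14 to 2.71) and -1.03 (-3.09 to 1.04).

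The mitochondrial transaminase Bcat2 (chromosome 7, 45570153 to 45589711, plus strand) did not pass in HFD. It had 7768, 8575, 8027 and 7432 normalised reads in KO, against 4104, 4648, 7995 and 6384 in WT, and of the WT replicates the highest alone reached the KO range. Its log2 difference was 0.51 ± 0.20 (SE) with an adjusted p of 0.184 (limma). The methylcrotonyl-CoA carboxylase subunit Mccc1, which carries biotin (chromosome 3, 35959833 to 36000678, minus strand), had 3779, 4087, 4377 and 3898 normalised reads in KO, against 2249, 2988, 3597 and 2335 in WT. The lowest KO value stood above the highest WT value, and the difference of 0.56 ± 0.15 (SE) had an adjusted p of 0.0845. It passed under 2 of 19 alternatives, without WT replicate 3 and with DESeq2. The E1 beta subunit Bckdhb (chromosome 9, 83925145 to 84124239, plus strand) had 1741, 2193, 1920.1 and 1778 normalised reads in KO, against 849, 1129, 1543 and 1811 in WT, with 1 WT replicate inside the KO range, a difference of 0.57 ± 0.21 (SE) and an adjusted p of 0.172.

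The partner subunits of these enzymes gave other values in HFD. Mccc2, the second methylcrotonyl-CoA carboxylase subunit (chromosome 13, 99948533 to 100015639, minus strand), had 1854, 1936, 1971 and 1807 normalised reads in KO, against 1805, 2133, 2822 and 2263 in WT, a difference of -0.24 ± 0.13 (SE) opposite in sign to that of Mccc1. Bckdha, the E1 alpha subunit (chromosome 7, 25629946 to 25658981, minus strand), had 5408, 5764, 5695 and 5229.9 normalised reads in KO, against 4871, 4503, 6041 and 6101 in WT, with a difference of 0.050 ± 0.12 (SE). The E2 core Dbt (chromosome 3, 116513070 to 116549981, plus strand) had 1298, 1121, 1121 and 1273 normalised reads in KO, against 1093, 1324, 1524 and 1293 in WT, with a difference of -0.11 ± 0.11 (SE). All 3 overlapped between KO and WT. The kinase Bckdk (chromosome 7, 127904082 to 127910221, plus strand) had 1406, 1567, 1448 and 1343 normalised reads in KO, against 1335, 1539, 1909.7 and 2139 in WT, with the 2 highest WT replicates above every KO replicate and a difference of -0.24 ± 0.15 (SE). Ivd (chromosome 2, 118861954 to 118882909, plus strand) had 5810.3, 5785, 5351 and 5370.4 normalised reads in KO, against 4481, 4409, 5804 and 5487 in WT, and Pcca (chromosome 14, 122534339 to 122889944, plus strand) had 2181, 2286, 2436 and 2223 normalised reads in KO, against 1974, 2502, 2734 and 2275 in WT. Both overlapped between KO and WT. Ivd differed by 0.15 ± 0.12 (SE) and Pcca by -0.046 ± 0.11 (SE), the sign of Pcca turning to 0.040 after TMM scaling. None of these 6 passed, with adjusted p from 0.324 to 0.842.

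Counted together in HFD, 1 of the 10 genes passed (Bcat1, lower), against 3.47% of all 13946 genes tested (2.46% lower). The groups did not overlap in 2 of 10 (Bcat1 lower, Mccc1 higher), against 14% of all genes, so that count is near the background. The 10 genes were chosen with earlier results of these data known, so these shares are not a test. The median log2 difference was 0.00174 over the 10 genes and -0.086 over all genes, with 5 of the 10 higher and 5 lower. With DESeq2 on recovered reads 4 of the 10 passed, Bcat1 lower and Bcat2, Bckdhb and Mccc1 higher, in a test that called 1498 genes in all. Marker lists overlapped between the groups in HFD: summed adipocyte markers were 742439 to 865762 normalised reads in KO and 572656 to 895027 in WT, macrophage markers 10891 to 12669 and 5859 to 12636, and stromal markers 23072 to 51927 and 20645 to 42819.9. Of the 6 epididymis markers, 4 were at 0 in every HFD KO replicate and 3 in every HFD WT replicate. HFD WT 1, which carried epithelial markers, was the lowest WT replicate for Bcat2, Bckdhb and Mccc1. Without it 1166 genes were called in HFD, against 484 with it. The part of these markers was not tested. Of the 40 HFD markers tested, 1 passed, the adipocyte gene Cfd (log2 0.97, adjusted p = 0.0487, limma).

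**Figure D3:**
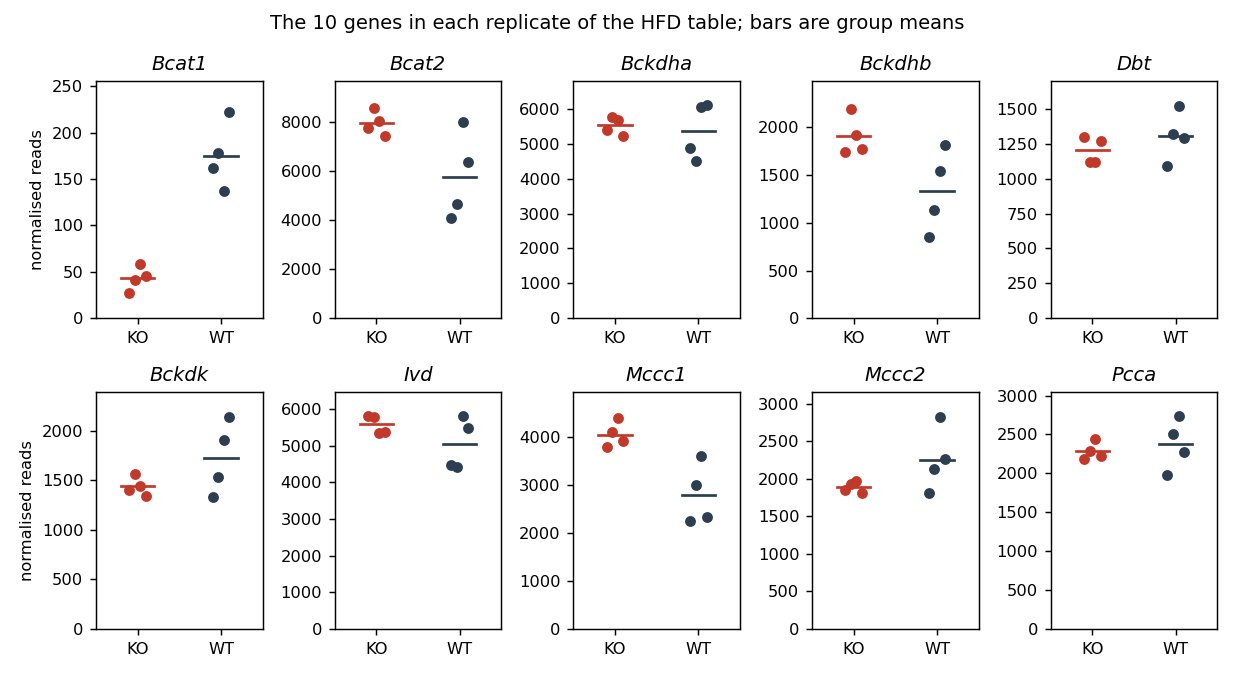
Normalised reads (y axis, from 0) of the 10 genes in each KO (red, left) and WT (dark blue, right) replicate of the HFD table, with bars at the group means. Bcat1 is lower and Mccc1 higher in KO without overlap of the groups, and the other 8 genes overlap.

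Other genes of branched-chain amino acid metabolism were read from 3 lists. The lists were chosen with earlier results of these data known, so the shares of all genes given beside them are not a test. Of 17 further mitochondrial genes, 1 rose in HFD and 0 fell, where 1.01% of all genes rose. This was Aldh6a1, the methylmalonate semialdehyde dehydrogenase of valine breakdown, with 7194 ± 264 normalised reads in KO and 5246 ± 225 in WT (SD, n = 4 each), a log2 difference of 0.46 ± 0.090 (SE) with an adjusted p of 0.0282 (limma), which passed under 10 of 19 alternatives. The median log2 difference of the 17 was 0.044, beside -0.086 over all genes. Of 5 amino acid carriers of the cell surface, 1 fell, where 2.46% of all genes fell. This was the exchanger Slc7a8, with 255 ± 6.43 normalised reads in KO and 544 ± 81.9 in WT (SD, n = 4 each). The log2 difference of Slc7a8 was -1.08 ± 0.11 (SE) with an adjusted p of 0.00234 (limma). Its KO replicates lay between 249 and 264 and its WT replicates between 452 and 650.4, and it passed under each of 19 alternatives. The median of the 5 was -0.21. Of 8 regulators reported for the pathway, 2 rose, where 1.01% of all genes rose. The coactivator Ppargc1b had 60.8 ± 6.67 normalised reads in KO and 24.6 ± 4.27 in WT (SD, n = 4 each), a log2 difference of 1.28 ± 0.18 (SE) with an adjusted p of 0.00661, and the adipogenic nuclear receptor Pparg had 3728 ± 189 normalised reads in KO and 2422 ± 379.6 in WT (SD, n = 4 each), a log2 difference of 0.63 ± 0.12 (SE) with an adjusted p of 0.0272, the second passing under 13 of 19 alternatives. The median of the 8 was 0.23.

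In the other 4 tables none of these 30 genes passed with limma. The smallest p-values in CD belonged to Acadsb (0.54), Ppm1k (0.59) and Dld (0.60) of the mitochondrial list, Slc43a2 (-0.48), Slc7a8 (-0.52) and Slc43a1 (-0.061) of the carriers and Srebf1 (1.06), Esrra (0.19) and Pparg (0.40) of the regulators, with log2 differences in parentheses. In Epi they belonged, in the same order of lists, to Hsd17b10 (0.67) and Slc25a44 (0.55), to Slc43a1 (0.63), Slc3a2 (0.24) and Slc7a5 (1.31), and to Ppargc1a (1.05), Srebf1 (0.47) and Klf15 (0.47). In Adipo they belonged to Oxct1 (-0.67), Mcee (-0.38) and Dld (-0.45), to Slc7a8 (-0.92), Slc3a2 (0.26) and Slc43a1 (0.68), and to Srebf1 (0.52), Ppargc1b (1.03) and Ppargc1a (0.49). In BA they belonged to Pccb (-0.33), Acad8 (-0.30) and Acat1 (-0.43), to Slc43a1 (0.62), Slc43a2 (-0.48) and Slc3a2 (0.22), and to Cebpa (0.63), Klf15 (0.60) and Ppargc1a (-0.84). The mitochondrial list had medians of 0.25 in CD, 0.28 in Epi, -0.014 in Adipo and -0.16 in BA.

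In whole fat after the long diet 9 of the 10 genes had higher mean log2 values in KO and none passed (limma, 0% of 17513 genes passed, 9.21% at an unadjusted p under 0.05; edgeR called 0 genes and DESeq2 528, with 0 of the 10). Bcat2 had 26434, 10209 and 19315 normalised reads in KO, against 10434, 10942 and 6702 in WT, a log2 difference of 0.92 ± 0.37 (SE). KO 1 and KO 3 were above every WT replicate and KO 2 below 2 of them. Bckdha had 19007, 11559 and 15456 normalised reads in KO, against 11114, 10036 and 6899 in WT, the only gene of the 10 whose groups did not overlap, with a difference of 0.71 ± 0.25 (SE) and an adjusted p of 0.49. Non-overlap was found in 16.5% of all genes. Ivd had 18001, 13054 and 20622 normalised reads in KO, against 11334, 13426 and 6674 in WT, with WT 3 far below the other WT replicates, and a difference of 0.75 ± 0.30 (SE).

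The remaining Epi differences were 0.49 for Mccc2, 0.47 for Bckdhb, 0.45 for Dbt, 0.44 for Mccc1, 0.37 for Bckdk and 0.23 for Pcca. The median over the 10 was 0.46, against -0.029 over all genes. The mean log2(value + 1) of the 8 mitochondrial breakdown genes (the 10 without Bcat1 and the kinase Bckdk) was 13.44, 12.74 and 13.31 in KO and 12.67, 12.93 and 12.21 in WT, in the order of replicate numbers. The mean of the 7 adipocyte markers in the same order was 17.86, 17.05 and 17.66 in KO and 17.30, 17.42 and 16.91 in WT. WT 3, the lowest by both measures, had the highest summed macrophage markers, 83331, against 35945 to 40904 in KO and 35428 and 41519.8 in the other WT replicates. The part of these markers in the results was not tested.

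In isolated adipocytes 8 of the 10 had higher mean log2 values in KO, 0 passed (0.638% of 14105 genes passed) and the median was 0.087, against -0.044 over all genes. Ivd had 14362 and 16852 normalised reads in KO, against 13746, 13897 and 6647 in WT. The groups did not overlap in 2 of the 10 (Bcat1 lower, Ivd higher), against 48% of all genes with 2 against 3 replicates. Bcat2 had 14321 and 12426 normalised reads in KO, against 10624, 12675 and 6510.0 in WT. WT 3 was the lowest of the 5 adipocyte replicates for all 8 mitochondrial breakdown genes, and without it the differences of Dbt, Mccc1, Mccc2 and Bckdk turned negative, to -0.091, -0.16, -0.098 and -0.021. WT 3 also had the most macrophage markers (15175 summed, against 3139.7 to 7965 in KO). Summed endothelial markers were 11784 to 27929.8 in KO and 1653 to 3058 in WT, mesothelial markers 882 to 1342 in KO and 105 to 548 in WT, and stromal markers 24831 to 26053 in KO and 14301 to 20582 in WT, and none of these 13 markers passed. The part of these markers was not tested.

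On chow 9 of the 10 genes had higher mean log2 values in KO and 0 passed (limma, 0% of 15467 genes; 9.61% had an unadjusted p under 0.05, edgeR called 0 genes and DESeq2 1047, with 0 of the 10). Bcat1 was the 1 gene without overlap, against 16.9% of all genes. The median of the 10 was 0.17 and that of all genes 0.11, a shift that TMM scaling takes to -0.00375. With that scaling Mccc2 and Pcca stood at -0.099 and -0.012, against 0.016 and 0.10. Bcat2 had 4563, 4762 and 10646 normalised reads in KO, against 3806, 2317 and 6717 in WT. Mccc1 had 1857, 1856 and 2912 normalised reads in KO, against 1458, 1082 and 2243 in WT. In both genes the KO range overlapped the WT range. WT 2, with the lowest adipocyte markers (14.17, against 15.42 to 15.93 in KO), was the lowest of the 6 replicates for each of the 8 mitochondrial breakdown genes. Without it Bckdhb, Dbt, Mccc2 and Pcca had log2 differences of -0.34, -0.17, -0.20 and -0.13, none passing.

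In inguinal fat of the beta-adrenergic series 7 of the 10 genes had lower mean log2 values in KO, 0 passed (0.0323% of 12377 genes passed), and the groups overlapped for each of the 10, where 5.49% of all genes had groups that did not. Dbt, the E2 core, had 1199, 827, 739 and 737 normalised reads in KO, against 1095, 949.8, 1471 and 1800.4 in WT, with KO 1 inside the WT range and the other 3 KO replicates below it. Its difference was -0.59 ± 0.23 (SE) with an adjusted p of 0.461 (limma). Pcca had 4534, 2837, 2903 and 2476 normalised reads in KO, against 3229.8, 3294, 4556 and 5024 in WT, a difference of -0.35 ± 0.22 (SE). For both genes WT 3 and WT 4 were the highest WT replicates, and these also held the most Ucp1, the uncoupling protein of brown and beige fat, at 20678 and 40497 normalised reads, against 1255 to 7787 in KO. Its part was not tested.

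Bcat2 in BA had 12992, 5845, 4279 and 5640.0 normalised reads in KO, against 5488, 5369, 4554 and 4132 in WT. KO 1 had more than any other replicate of the table, and without it the difference was 0.10 in place of 0.43. Bckdha had 10455, 10061, 6704 and 10271 normalised reads in KO, against 8768, 10722, 9289.9 and 10332 in WT, with KO 3 alone below the rest, the replicate with skeletal muscle markers. The other differences were -0.29 for Mccc2, -0.23 for Mccc1, 0.31 for Bckdhb, -0.11 for Ivd and -0.11 for Bckdk. The median of the 10 was -0.11, against 0.0064 over all genes. The 7 adipocyte markers had higher mean log2 values in KO, with means over the list of 14.98 to 15.40 in KO and 14.43 to 14.93 in WT, and none passed.

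**Figure D4:**
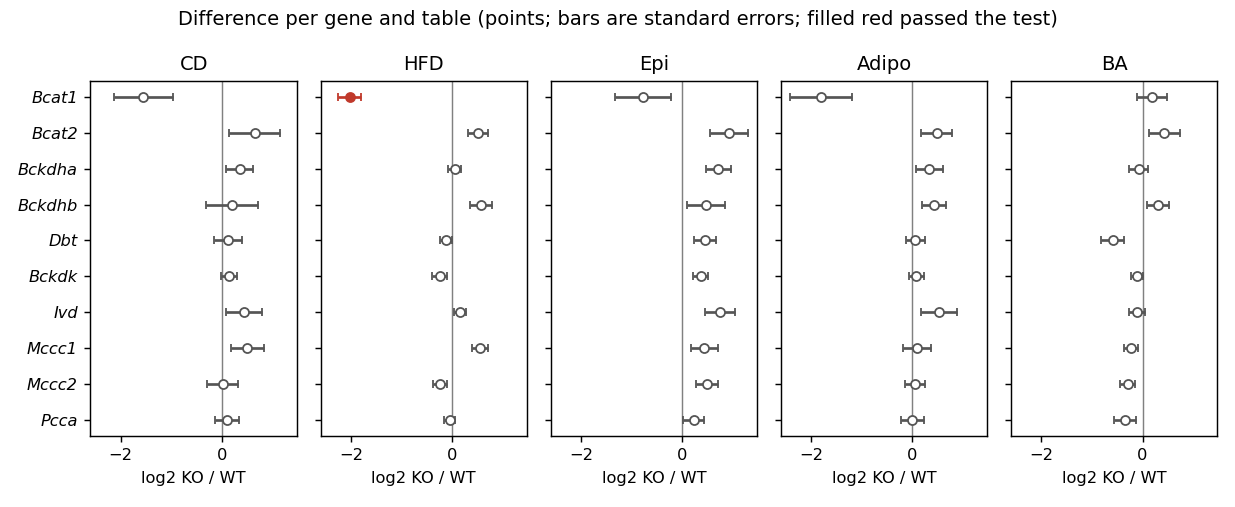
Log2 difference of KO over WT (x axis) with its standard error for the 10 genes (y axis) in the 5 tables, from limma on log2(value + 1). The filled red point, Bcat1 in HFD at -2.02, is the one that passed; Bcat1 is left of 0 in CD, HFD, Epi and Adipo.

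The genes varied with each other within tables. Over 33 replicates, with log2(value + 1) centred on the mean of its table, Dbt and Pcca had a Pearson r of 0.92, Bckdha and Ivd 0.90, Bcat2 and Bckdhb 0.87 and Ivd and Mccc1 0.84. Mccc1 and Mccc2, the 2 subunits of 1 enzyme, had 0.69, and the E1 subunits Bckdha and Bckdhb 0.71. Bcat1 had negative values with all 9 others, from -0.71 with Bckdhb to -0.13 with Bckdk. The points share libraries, their adipocyte content and the difference in genotype, and no test was made. Of 9812 other genes with a mean of 50 or more in each table, the 5 most like the mean of the 8 mitochondrial breakdown genes were the monooxygenase Fmo1 (Pearson r 0.93, Spearman rho 0.89), the enoyl-CoA hydratase Echs1, itself a step of valine breakdown (0.91, 0.85), Pgm1 (0.90, 0.93), Timm21 (0.90, 0.85) and Echdc3 (0.89, 0.82). Without the 2 replicates farthest from the median, r was 0.85 to 0.90, and within each of the 4 tables of 6 or more replicates it was 0.70 or more.

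**Figure D5:**
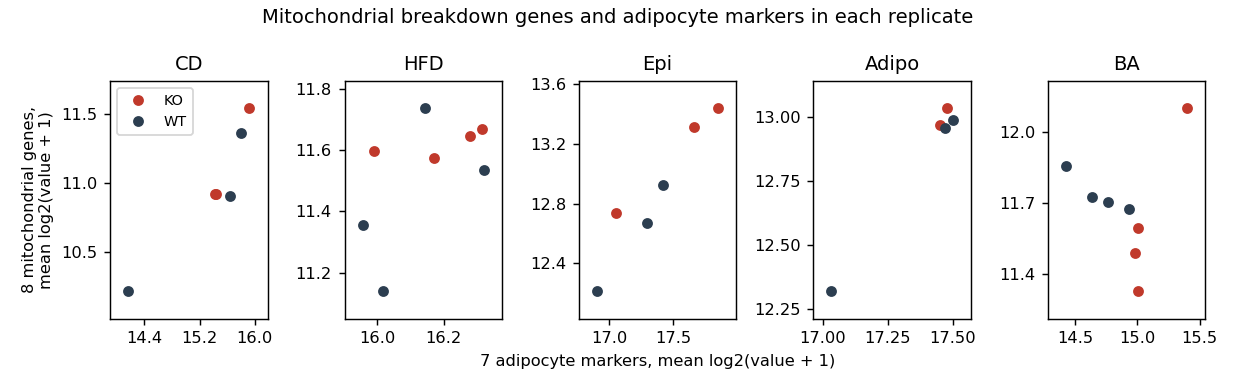
Mean log2(value + 1) of the 8 mitochondrial breakdown genes (y axis) against that of the 7 adipocyte markers (x axis) in each KO (red) and WT (dark blue) replicate, with axes fitted to each table; CD KO 1 and 2 lie on each other. The lowest replicate by both measures is WT 2 in CD, at 10.22 and 14.17, and WT 3 in Epi and Adipo.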

How the data were processed

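RNA was sequenced from mouse fat and isolated adipocytes after TruSeq stranded mRNA library preparation, per the labels' protocols. The authors deposited signal values, read counts per Ensembl transcript divided by a size factor, in 5 tables. The submitters' processing notes name the build GRCm38.p4, DESeq 1.8.3, HTSeq 0.5.3, STAR 2.4.0k, bcl2fastq 2.17 and SAMtools, and no source used here says whether counting read the strand. Steps between values gave back whole reads (100% of values within 0.01) in 96 of 99 libraries. Groups came from sample titles, 99 of 100 samples were used, and 1 column that matched no sample was not used. Libraries of 1 replicate were averaged.

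GENCODE M21 gave gene symbols and positions. Of 97669 transcripts, 698 without a gene (0.332% of the values) were left out, and the transcript with the highest mean stood for each of 32153 genes. Within each table, genes with a mean of 10 or more were compared between KO and WT with limma 3.58.1 (R 4.3.3, trend and robust) on log2(value + 1), which understates the change of low genes. P-values are two-sided, with Benjamini-Hochberg adjustment over all genes at 0.05. The tables share no control samples. Differences between tables were fitted as interactions. edgeR 4.0.16 and DESeq2 1.42.0 were run on recovered reads as alternatives, and other scalings, pseudocounts (0.5 and 5), filters, a replicate block and omission of each replicate were tried. The code was tested on simulated data. Tables were handled with pandas 2.3.3, scipy 1.17.1 and matplotlib 3.10.9. Text names the 10 genes, Gps2, the genes of 3 lists that passed (or up to 3 of smallest p where none did) and the 5 genes of highest correlation. For the mitochondrial list in Epi, 1 gene under this rule is not reported here. Members and lists were chosen with earlier results of these data known. Same-numbered Adipo and Epi samples deviated together (correlations of 0.16 to 0.70 for the 5 pairs, from the data and not the labels), so the blocked fit was used as a check there, and it changed no call of the 10 genes.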

Additional observations from a re-analysis of the deposited data

Results flagged for a closer look

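Bckdha, the E1 alpha subunit, had 6703.5 normalised reads in BA KO 3, far below the other KO replicates at 10455, 10061 and 10271 and the WT replicates at 8768 to 10722. Its gap to the nearest KO replicate was 0.895 of the group's range. This was 1 of 40 groups of 4 replicates examined, and chance gives about 1 in 20. The same replicate held skeletal muscle markers, and without BA KO 3 the log2 difference of Bckdha was 0.074 in place of -0.079. The part of the muscle markers was not tested.

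The KO to WT difference of Bcat1 was 2.21 higher on the log2 scale in BA than in HFD (SE 0.40, adjusted p = 0.027, limma interaction), a difference between groups under the same contrast. The log2 difference was 0.18 in BA and -2.02 in HFD, where all 4 KO replicates were below all 4 WT replicates. With the replicate block the adjusted p was 0.124, and over all alternatives that could be fitted it ran from 0.00815 to 0.124.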

How the results depend on the processing

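Bcat1 passed in HFD under each of 19 alternatives, with log2 differences of -2.18 to -1.83. Fold changes rest on log2(value + 1), Adipo has 2 KO replicates, and Bcat1 has few reads. Where an alternative moved a result, the cause was not tested.

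Genes called were 1 in CD, 0 in Adipo and 2 in BA without trend and robust moderation, 143 in Adipo and 1 in BA with TMM scaling, and 378 in Adipo, 2 in BA and 1 in HFD against CD without a filter. edgeR called 164 in Adipo. DESeq2 called 1047 in CD, 1498 in HFD (4 of the 10 genes), 528 in Epi, 1797 in Adipo and 274 in BA. Summing transcripts called 7 genes in BA. At a minimum mean of 50 Bcat1 left the test of BA against HFD, so 0 of the 10 passed. With the replicate block 268 genes were called in HFD, 1395 in Adipo and 13 in BA against HFD, where 0 of the 10 passed. In Adipo the blocked fit rests on the replicate numbers held by both KO and WT, 1 and 2. Within tables the titles join same-numbered KO and WT samples by a number alone. Their deviations correlated at -0.57 to 0.58, which does not settle whether they were paired. The block also ended the calls of Aldh6a1 and Pparg in HFD, at adjusted p of 0.0806 and 0.0508, while Bcat1, Slc7a8 and Ppargc1b passed with it.

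Leaving out each replicate, genes called were 0 to 637 in CD (637 without KO 3), 126 to 1166 in HFD, 0 to 22 in Epi (22 without KO 1), 3 to 718 in Adipo (718 without WT 3) and 0 to 9 in BA (9 without KO 1). In HFD they were 181, 265, 146 and 126 without KO 1, 2, 3 and 4, and 1166, 305 and 290 without WT 1, 3 and 4; 1 to 2 of the 10 genes passed. Between tables they were 0 to 730 for HFD against CD, 0 to 181 for Epi against CD, 33 to 656 for Adipo against Epi and 7 to 111 for BA against HFD (0 to 2 of the 10). The between-table omissions, and those of libraries that stood apart, were chosen after seeing the data. Without BA KO 3 and WT 2, 0 genes were called in BA, Bckdha was 0.12 and Ivd 0.00044. The 637 genes called without CD KO 3, of which 613 were higher in KO, rest on CD KO 1 and 2. Those 2 were far more alike than other CD replicates, and both carried epididymis markers.

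No reversed difference passed. In CD, TMM, edgeR and DESeq2 gave -0.099, -0.11 and -0.11 for Mccc2, -0.012, -0.018 and -0.020 for Pcca and -0.071, -0.073 and -0.075 for Gps2. edgeR and DESeq2 gave -0.028 and -0.027 for Bckdhb and -0.024 and -0.026 for Dbt there. The same 3 gave 0.040, 0.033 and 0.031 for Pcca in HFD and 0.042, 0.047 and 0.027 for Pcca in Adipo. With the block in Adipo, Dbt was -0.091, Bckdk -0.021, Mccc1 -0.16, Mccc2 -0.098 and Gps2 -0.0033. These equal the values without WT 3, whose number no KO replicate shared, so the block is no separate check there. Omitting replicates gave ranges across 0 in CD for Bckdhb (-0.34 to 0.61), Dbt (-0.17 to 0.33), Mccc2 (-0.20 to 0.29), Pcca (-0.13 to 0.27) and Gps2 (-0.11 to 0.18). In HFD they were -0.031 to 0.11 for Bckdha, -0.13 to 0.025 for Pcca and -0.037 to 0.083 for Gps2. In Adipo they were -0.091 to 0.16 for Dbt, -0.021 to 0.16 for Bckdk, -0.16 to 0.25 for Mccc1, -0.098 to 0.17 for Mccc2, -0.19 to 0.19 for Pcca and -0.0033 to 0.082 for Gps2. In BA they were -0.016 to 0.48 for Bcat1 and -0.14 to 0.074 for Bckdha.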
